A study of Mus musculus and synthetic construct with 32 samples.

Results

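RNA fragments bound by an antibody to N6-methyladenosine (m6A) were compared with the input fragments from which they were taken, in 1 library each, from testes of wild-type mice (YTHDC2 +/+, strain C57BL/6J) at postnatal day 8 (P8). They were chosen by their labels, as 2 of the 32 samples of the series and 2 of its 10 m6A libraries, and every feature of the table was described: exons, introns, repeats and miRNA hairpins, 85863 features in all. The series studied the RNA helicase YTHDC2 in the mouse germline and also held total RNA of knockout and control testes and ovaries, other ages of the m6A assay and a binding assay of the YTH domain. Polyadenylated RNA was purified from whole testis, fragmented and immunopurified, and the libraries were made with a kit for small RNAs. Neither library carries a mutation or a treatment, and the labels do not say how many animals gave the RNA.

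m6A is a methyl group on adenosine that the METTL3-METTL14 complex places on mRNA while it is made, most often near stop codons and in long internal exons. Erasers can remove it, and reader proteins with a YTH domain bind it and alter the decay, splicing or translation of the transcript. In the testis at P8 the germ cells are spermatogonia, the first of which are about to enter meiosis, among Sertoli, Leydig and peritubular cells. YTHDC2, a reader that is also a helicase, is needed for germ cells to leave mitosis and to complete entry into meiosis.

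The measure throughout is the log2 fold of the immunoprecipitate over the input that the authors deposited for each feature, with an adjusted p. A feature is called enriched or depleted in the immunoprecipitate where that adjusted p is below 0.05 and the fold is above or below 0, among features whose mean normalized count reached 10. With 1 library in each group there is no replicate check, no value per library and no standard deviation, and the sources used here do not say from which libraries the spread behind the adjusted p was taken. The fold is relative to the other RNAs of the same libraries, so that a fold of 0 marks the middle of the RNAs and not an absence of m6A. The mean count is one value over libraries of several ages, so it does not give the level of a gene at P8. The spermatid genes Prm1 and Ldhc, with mean counts of 98.6 and 24804 in the authors' deposited table, show that later ages enter it.

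Several miRNA hairpins stood out by size, and the sequences of their mature products are shown first because related sequences could be compared directly. The counts were made over whole hairpins, so a fold belongs to the hairpin and not to one arm. Whether the reads came from mature miRNAs or from fragments of longer RNAs is not given. No fold here is therefore shown to be that of a mature miRNA. In the mature sequences below, from RefSeq (GRCm38.p6), written 5′ to 3′, the capitals mark the seed, bases 2 to 8, which pairs with target mRNAs. The 4 enriched hairpins of the let-7 family share the seed GAGGUAG.
mmu-let-7b-5p: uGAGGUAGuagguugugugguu
mmu-let-7c-5p: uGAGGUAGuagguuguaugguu
mmu-let-7d-5p: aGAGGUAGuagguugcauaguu
mmu-let-7e-5p: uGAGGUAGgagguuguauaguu
The 3 hairpins of the miR-148 and miR-152 family share the seed CAGUGCA and were all depleted.
mmu-miR-148a-3p: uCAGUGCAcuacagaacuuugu
mmu-miR-148b-3p: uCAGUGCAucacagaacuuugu
mmu-miR-152-3p: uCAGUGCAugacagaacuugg
The depleted pairs of the miR-17 and miR-30 families share AAAGUGC and GUAAACA.
mmu-miR-17-5p: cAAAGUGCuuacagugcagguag
mmu-miR-20a-5p: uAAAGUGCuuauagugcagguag
mmu-miR-30a-5p: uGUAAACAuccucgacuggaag
mmu-miR-30e-5p: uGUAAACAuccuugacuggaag
Among the called hairpins, a pair with the seed ACCCGUA and a pair with the seed AGCAGCA each held 1 enriched and 1 depleted hairpin.
mmu-miR-99a-5p: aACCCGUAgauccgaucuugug
mmu-miR-100-5p: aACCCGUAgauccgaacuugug
mmu-miR-16-5p: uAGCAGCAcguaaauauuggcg
mmu-miR-322-5p: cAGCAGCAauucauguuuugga

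Of 211 miRNA hairpins tested in sense, 23 were enriched (10.9%) and 22 depleted (10.4%), 21.3% in all, with a median fold of -0.03. The largest folds upward in the authors' deposited table were 4.56 for mir-669c, 4.37 for mir-6409, 4.20 for let-7d, 3.96 for mir-320 and 3.65 for mir-7225. Downward they were -5.11 for mir-1898, -4.73 for mir-471, -4.63 for mir-21a, -4.55 for mir-126a and -4.13 for mir-30e in the authors' deposited table. Among these, the smallest adjusted p values in the authors' deposited table were 3.62e-17 for mir-669c and 8.08e-18 for mir-21a. These 10 folds exceed in size the sense exon fold of any protein-coding gene called, and of the 45 called hairpins all but let-7d and mir-148a had mean counts below 1000. Mean counts over all ages were only 20.3 for mir-1898, 41.2 for mir-126a, 47.6 for mir-471 and 70.6 for mir-30e, against 364 for mir-21a. Those of the upward hairpins ran from 295 for mir-6409 to 1721 for let-7d. The adjusted p of mir-6409 was 0.0207 in the authors' deposited table. Mir-21a is widely expressed, and mir-126a is known from endothelium.

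The let-7 members were not alike. let-7d (chromosome 13, 48536012 to 48536114, GRCm38) had a fold of 4.20 (adjusted p = 4.52e-13) per the authors' deposited table. The neighbours let-7b and let-7c-2 on chromosome 15 had 2.60 and 1.86, and let-7e 1.66, by the authors' deposited table (adjusted p = 2.58e-05, 0.00122 and 0.0305). For the other tested members, let-7a-1, let-7f-2, let-7f-1, mir-98, let-7i and let-7g, the folds were 1.31, 0.59, 0.31, 0.25, -0.07 and -0.63 in the authors' deposited table, and none passed. The hairpins let-7a-1 and let-7f-1 start at 48538179 and 48537829 on chromosome 13, in the same cluster as let-7d, and were not called while it was.

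Close relatives with opposite calls were mir-99a and mir-100. Their 5p products differ at 1 base, U16A, counted from 1 at the 5′ end, with miR-99a first. By the authors' deposited table mir-99a (chromosome 16, 77598936 to 77599000) had a fold of -1.60 (adjusted p = 0.0184). By contrast, mir-100 (chromosome 9, 41531425 to 41531504) had 1.75 (adjusted p = 0.00122) per the authors' deposited table. Reads of such near-identical products, if mature miRNAs were counted, can be split by counting, which the sources used here do not describe. A further tested hairpin of similar name, mir-99b, did not pass, at -0.57 in the authors' deposited table. The other pair, mir-16-1 and mir-322, had folds of -3.20 and 1.79 by the authors' deposited table (adjusted p = 0.00277 and 0.0134). Within the miR-148 and miR-152 family the folds were -4.07, -3.68 and -2.09 for mir-148a, mir-148b and mir-152 in the authors' deposited table. For mir-17 and mir-20a they were -2.79 and -3.63, for mir-30a -3.13, and for mir-101a and mir-101b -3.82 and -3.07, in the authors' deposited table. The remaining tested miR-30 hairpins, mir-30d and mir-30c-2, did not pass, at -1.03 and -1.02 in the authors' deposited table. Nor did mir-93 and mir-106b of the miR-17 family, at -1.72 and -1.56 in the authors' deposited table. Of the depleted hairpins in these families, mir-148a, mir-99a and mir-30a had mean counts over all ages of 1167, 977 and 208. The mean counts of mir-148b, mir-101a, mir-17, mir-16-1, mir-101b, mir-20a, mir-30e and mir-152 were low, from 18.1 to 92.4.

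Many of these hairpins lie within longer genes, whose exon folds were read beside them. Of 20 enriched hairpins matched to RefSeq, 12 lay within the span of a tested gene, and 5 of those genes had a fold of the same sign. Of 21 depleted hairpins matched, 12 lay within such a gene, and 8 shared its sign. Mir-21a (-4.63) lies in Vmp1, with an exon fold of -1.80, and mir-423 (2.22) in Nsrp1, with 2.11, in the authors' deposited table. Mir-30e (-4.13) lies in Nfyc, whose exon fold was 1.71, and mir-5126 (3.52) in Dner, whose exon fold was -1.63, in the authors' deposited table. The sign of the hairpin thus differed from that of the gene around it in 7 of 12 enriched and 4 of 12 depleted hairpins. Of the hairpins not called, 66 lay within 1 tested gene and 40 shared its sign. The 4 letters GGAC, a core of the m6A consensus, were present on the transcribed strand of 6 of the 20 enriched hairpins (30%), 3 of the 21 depleted (14.3%) and 39 of 137 not called (28.5%), against 24.5% of all 1005 RefSeq hairpins. Median GC content of the hairpins was 52.7% in the enriched, 45.7% in the depleted and 50.5% in the others.

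Among sense exons, 16399 of 22511 genes had the minimum mean count, and 51.3% of them passed the authors' test: 4251 were enriched (25.9%) and 4158 depleted (25.4%). Their median fold was -0.01 and the quartiles were -0.83 and 0.90. The calls depend on how well a gene was counted. At mean counts of 10 to 30, 2.43% were enriched and 0.664% depleted, against 42.2% and 32.1% of the 109 genes above 10000. A gene that was not called is therefore not shown to be the same in both libraries.

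**Figure D1:**
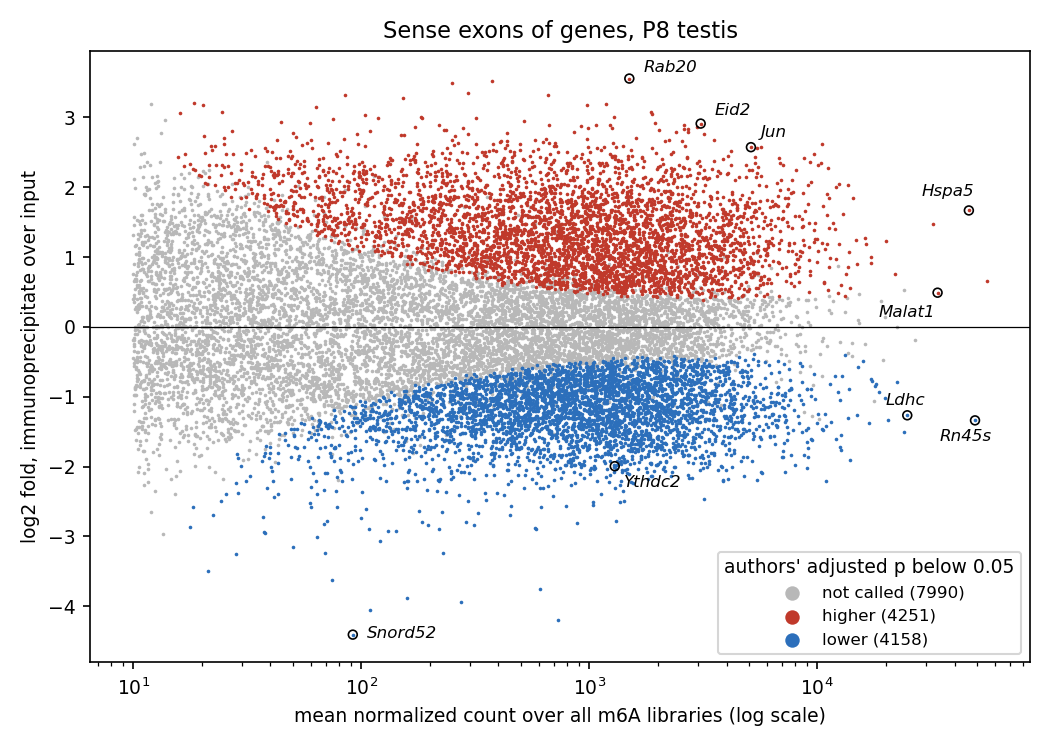
Log2 fold of the immunoprecipitate over the input (vertical axis) against the mean normalized count (horizontal axis, log scale) for each of the 16399 genes tested in P8 testis. Red points are the 4251 enriched genes, blue points the 4158 depleted genes and grey points the rest. Coloured points come closer to 0 as the mean count grows, and Snord52 at -4.41 and Rab20 at 3.56 mark the ends.

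The largest enrichment belonged to Rab20, a small GTPase of endosomes and phagosomes (chromosome 8, 11453390 to 11478640), with a fold of 3.56 (adjusted p = 2.01e-41) per the authors' deposited table. Next in the authors' deposited table came Cxx1b, a gene derived from a retrotransposon, at 3.52, and Sox1, a single-exon transcription factor gene of neural progenitors, at 3.49. Zfp708 at 3.35 and Zfp1 at 3.20 encode zinc finger proteins, and Ascl2 at 3.32 and Tal2 at 3.32 encode basic helix-loop-helix transcription factors, in the authors' deposited table. The lncRNA AV039307 had 3.27, the olfactory receptor gene Olfr1032 3.20, the actin-related Actrt1 3.17, Lrrc25 3.15 and Snrnp35, which encodes a protein of the minor spliceosome, 3.08 in the authors' deposited table. Olfr1032 and Actrt1 rest on mean counts of 18.5 and 20.3 in the authors' deposited table. The smallest adjusted p values upward in the authors' deposited table were those of Eid2 (2.91, adjusted p = 3.19e-52), Sac3d1 (3.05, adjusted p = 1.23e-46) and AI837181 (2.83, adjusted p = 9.00e-45), named here after their values were seen.

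Of the largest depletions, all 12 with a gene symbol other than Gm or Rik were small noncoding RNAs. Left out by that naming rule were the lncRNA 2010320M18Rik at 3.18 and the pseudogene 4933417G07Rik at -3.63 in the authors' deposited table. Snord52 had -4.41 (adjusted p = 2.58e-09), the Cajal body RNA Scarna2 -4.20, Snord72 -4.06, Snord111 -3.94, Snord4a -3.88 and Snord42b -3.75 in the authors' deposited table. Snora21, Snora28, Snord12, Snord1b and Snord96a lay between -3.50 and -3.07, and the vault RNA Vaultrc5 at -3.25, in the authors' deposited table. Most of these RNAs are processed from introns and carry no poly(A) tail. Of the 84 small nucleolar and Cajal body RNA genes tested, 51 were depleted and 0 enriched, with a median of -1.96. The highest of them, Snord82, had 1.00 and did not pass, in the authors' deposited table.

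Among the most counted enriched genes was Hspa5, the chaperone of the endoplasmic reticulum, at 1.67 in the authors' deposited table. The nuclear lncRNA Malat1 had 0.49 (adjusted p = 0.00809), the germ cell LIM protein gene Fhl4 1.48 and the splicing cofactor gene Son 0.76 in the authors' deposited table. On the depleted side stood the ribosomal RNA precursor Rn45s at -1.34 (adjusted p = 0.0431), the germ cell lactate dehydrogenase Ldhc at -1.27 and the poly(A)-binding protein gene Pabpc1 at -1.50 in the authors' deposited table. Clu, a Sertoli cell product, had -0.78 and the dynein heavy chain gene Dnah8 -1.34 in the authors' deposited table.

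The genes of the m6A machinery differed in their calls. Of 12 writer genes tested, 7 were enriched (58.3%) and 0 depleted, against 25.9% and 25.4% of all genes. Their median was 0.90 against -0.01 for all genes. The enriched ones included the regulatory subunits, which bring the enzyme to its targets: Rbm15b at 2.50, Rbm15 at 2.04, Wtap at 1.63, 1110037F02Rik (Virma) at 1.03, Cbll1 at 0.91 and Zc3h13 at 0.90 in the authors' deposited table. Pcif1, an enzyme that methylates adenosine at the cap, was also enriched, at 1.00 in the authors' deposited table. The catalytic pair had negative folds that did not pass, -0.59 for Mettl3 (adjusted p = 0.0659) and -0.41 for Mettl14 (adjusted p = 0.103), per the authors' deposited table. The enzymes of other RNA classes did not pass either: Mettl16 had -0.48, Mettl5 -0.98 and Zcchc4 0.30 in the authors' deposited table. Both erasers lay near 0, Fto at -0.28 and Alkbh5 at -0.02, and neither passed in the authors' deposited table.

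Among the readers, the cytoplasmic YTHDF proteins and YTHDC2 stood at opposite ends. Ythdf2, whose product recruits deadenylases to m6A mRNAs, had 1.84, Ythdf3 1.69 and Ythdf1 0.90 in the authors' deposited table, and all 3 passed. Ythdc2 had -2.0 (adjusted p = 4.09e-13), the lowest of the 13 readers, and the nuclear reader Ythdc1 -0.15, which did not pass, in the authors' deposited table. Other proteins linked to m6A reading were depleted: Fmr1 at -1.94, Hnrnpc at -1.38, Hnrnpa2b1 at -1.14, Igf2bp3 at -0.99 and Igf2bp1 at -0.73 in the authors' deposited table. Igf2bp2 at -0.30, Rbmx at -0.61 and Prrc2a at 0.42 did not pass in the authors' deposited table. In all, 3 of 13 readers were enriched (23.1%) and 6 depleted (46.2%), against 25.9% and 25.4% of all genes, with a median of -0.61.

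YTHDC2 works with MEIOC and RBM46 in germ cells and binds the exonuclease XRN1. Meioc had 0.38 (adjusted p = 0.106) and Rbm46 0.03 (adjusted p = 0.891) per the authors' deposited table, and neither passed. Xrn1 was depleted at -1.04 (adjusted p = 4.54e-07) per the authors' deposited table. Of 29 genes of these partners and of cytoplasmic and nuclear RNA decay, 3 were enriched and 13 depleted, with a median of -0.50. The lowest were Cnot1, the scaffold of the CCR4-NOT deadenylase, at -1.74, and the nuclear exonuclease Xrn2 at -1.70 in the authors' deposited table. The 3 enriched were Ddx6, a helicase of decapping, at 1.44, Pan3 of the PAN2-PAN3 deadenylase at 1.26 and Edc3 at 0.98 in the authors' deposited table.

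Germline lists, named for stages and processes, differed in their medians. Of 22 genes of undifferentiated spermatogonia, the stem and progenitor cells, 10 were enriched (45.5%) and 3 depleted (13.6%), with a median of 0.87. Over all genes 25.9% were enriched and 25.4% depleted. Nanos2, a translational repressor that keeps stem cells undifferentiated, had 2.56, Sox3 2.14, Egr2 2.06, Neurog3 2.06, Egr4 1.74 and Foxo1 1.70 in the authors' deposited table. Gfra1, the receptor for GDNF, had 0.99 and Zbtb16 (PLZF) 0.62, and both passed in the authors' deposited table. The 3 depleted were Ret, the co-receptor of GFRA1, at -0.74, Id4 at -0.68 and Taf4b at -0.64 in the authors' deposited table. Bcl6b had -0.75 and did not pass in the authors' deposited table. Nanos2 rests on a mean count of 37.7. Several of these genes encode transcription factors, and Nanos2 and Sox3 have no intron feature. Both classes had high folds in general, as given below, so stage and gene class cannot be told apart in this list.

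Genes of differentiating spermatogonia and of the retinoic acid response stood on the other side, with 12 of 21 depleted, 1 enriched and a median of -0.90. Uchl1 had -1.71, the transcription factor gene Sohlh2 -1.55, the retinaldehyde dehydrogenases Aldh1a1 and Aldh1a2 -1.48 and -1.36, cyclin A2 (Ccna2) -1.40, and the receptor tyrosine kinase Kit -1.24 in the authors' deposited table. The retinoic acid target Stra8, required for meiotic entry, had -0.90 (adjusted p = 0.000212) per the authors' deposited table. The enriched gene was Rara, the retinoic acid receptor itself, at 1.41 in the authors' deposited table. For Lin28b the fold was 0.02, in the authors' deposited table, and it did not pass.

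Of 39 genes of meiotic entry and prophase I, 24 were depleted and 5 enriched, with a median of -0.96. Hormad1 of the chromosome axis had -2.10, the helicase gene Hfm1 -1.86, Tex11 -1.78 and the meiotic cohesin Rec8 -1.71 in the authors' deposited table. Ythdc2 is also on this list. The axis and synaptonemal complex genes Sycp1, Sycp2 and Sycp3 had -1.06, -1.46 and -1.10, and the recombinase Dmc1 -1.05, in the authors' deposited table. Spo11, which cuts DNA to start recombination, had -1.64 (adjusted p = 0.00306) per the authors' deposited table. The 5 enriched were Ccdc36 (also called Iho1), needed for those cuts, at 2.06, Tex15 at 1.00, Mlh3 at 0.96, Brca2 at 0.87 and the histone methyltransferase Prdm9 at 0.70 in the authors' deposited table. Tex15 and Brca2 are known for very long exons, although exon lengths were not used here.

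The list with the highest share depleted among the germline lists was germ cell identity and the piRNA pathway, at 19 of 25 (76.0%), with a median of -1.27. The RNA-binding proteins Dazl and Ddx4 had -2.21 and -2.07, Hells -2.14, Rnf17 -1.94, Mael -1.86 and Tdrd9 -1.76 in the authors' deposited table. The PIWI genes had similar folds, at -1.27 for Piwil1, -1.27 for Piwil2 and -1.31 for Piwil4 in the authors' deposited table. The 2 enriched were Pld6, the mitochondrial nuclease that makes piRNAs, at 2.20 and Nanos1 at 1.33 in the authors' deposited table. Genes of mitosis and the spindle had 17 depleted and 4 enriched of 30 and a median of -1.02. Ect2 was lowest at -2.18 and Bub1 at -1.76, while the proliferation marker Mki67 had 1.38 and Cenpf 0.86 in the authors' deposited table.

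The somatic markers gave mixed folds. All 27 Sertoli markers, 16 Leydig markers and 17 peritubular and stromal markers listed reached the minimum count. Of the 26 names listed for germ cell identity, 25 had an entry, and all of those reached it. All 19 spermatid markers reached it too, so a mean count over all ages does not check the tissue at P8. Of the Sertoli genes, 7 were enriched (25.9%) and 10 depleted (37.0%), with a median of -0.30, against 25.9% and 25.4% of all genes. The activin subunit genes Inhba and Inhbb had 2.34 and 1.52, the receptor gene Fshr 2.20 and Sox9 1.55 in the authors' deposited table. At the low end Trf, transferrin, had -1.52, Cldn11 of the blood-testis barrier -1.24 and Dmrt1 -1.17, while Amh had -0.30 and did not pass in the authors' deposited table. Leydig genes had 2 enriched and 5 depleted of 16, with the steroid synthesis genes Fdx1 at -1.84 and Cyp17a1 at -1.59 in the authors' deposited table. Stromal genes had 3 enriched and 5 depleted of 17, from Igf1 at -1.73 to Tcf21 at 1.26 in the authors' deposited table. Endothelial genes had 5 enriched and 1 depleted of 14, with Cldn5 at 2.27 and Egfl7 at -1.29 in the authors' deposited table. Macrophage genes had 3 of 15 each way, and 4 of 5 erythroid genes tested were depleted. The enriched and depleted shares were 12.5% and 31.25% of Leydig, 17.6% and 29.4% of stromal, and 35.7% and 7.14% of endothelial genes. For macrophage genes both were 20%. A testis holds all these cells together, so the folds cannot be assigned to a cell type.

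**Figure D2:**
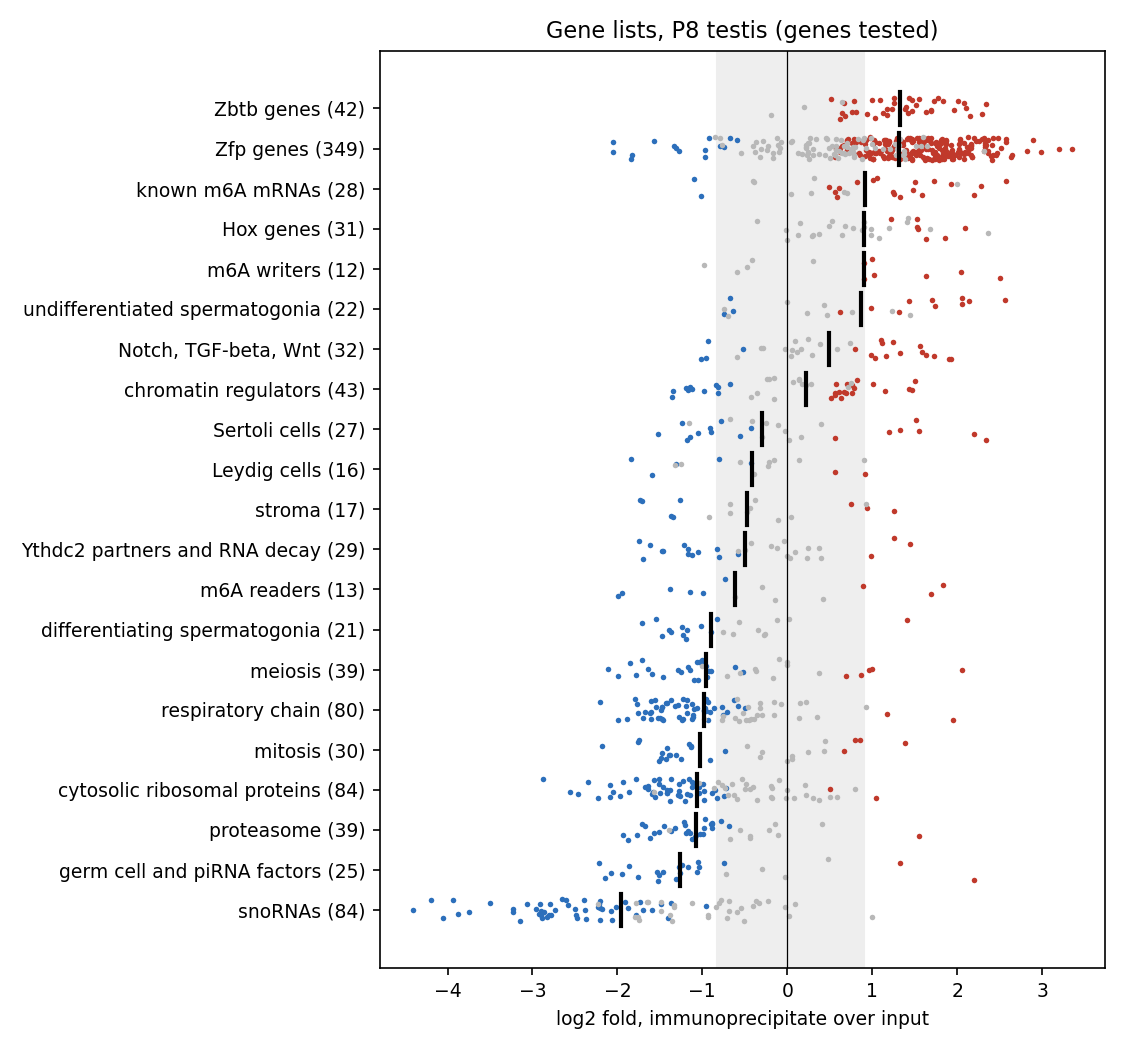
Each point is a gene, placed by its log2 fold of the immunoprecipitate over the input (horizontal axis), in red where enriched, blue where depleted and grey where not called. Black bars are list medians and the grey band runs between the quartiles of all genes tested, from -0.83 to 0.90. The Zbtb, Zfp and Hox genes lie to the right and the snoRNAs, with a median of -1.96, furthest to the left.

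The Zbtb and Zfp genes had the highest shares enriched of the lists tested, against 25.9% of all genes. Some smaller families given below, picked after their values were seen and not among those lists, had higher shares than the Zfp genes. Of 42 Zbtb genes, which encode zinc finger proteins with a BTB domain, 39 were enriched and 0 depleted, with a median of 1.32. Zbtb49 had 2.34, Zbtb2 2.30, Zbtb9 2.15 and Zbtb25 2.11 in the authors' deposited table. The lowest were Zbtb17 at -0.19 and Zbtb11os1, an antisense gene, at 0.20, and neither passed in the authors' deposited table. Of 349 genes named Zfp, 245 (70.2%) were enriched and 15 depleted, with a median of 1.31. Zfp280c and Zfp930 were lowest, both at -2.05, in the authors' deposited table. All but 1 of the Zfp genes had an intron feature. Of 31 Hox genes, 28 had a fold above 0 and the median was 0.91, but 7 (22.6%) were enriched, near the share of all genes, and 0 depleted. Hoxa2 at 2.36 did not pass, at a mean count of 13.1, while Hoxd11 at 2.09, Hoxd4 at 1.86 and Hoxa4 at 1.63 did in the authors' deposited table. Hoxa9 and Hoxc8 were lowest at -0.36 and -0.02 in the authors' deposited table.

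Smaller families, mostly of transcription factors, picked after their values were seen and so given as description, lay on the same side. For comparison, 25.9% of all genes were enriched and 25.4% depleted. Of 17 Sox genes 12 were enriched and 0 depleted (median 1.39), of 15 Klf genes 10 and 0 (median 1.14), and of 32 forkhead genes 17 and 1 (median 1.34). All 5 Cebp genes were enriched, from Cebpz at 1.20 to Cebpd at 2.85, in the authors' deposited table. Of 10 Frizzled genes, receptors for Wnt, 9 were enriched and Fzd3 was depleted at -0.53 in the authors' deposited table. Signalling transcription factors and regulators of the Notch, TGF-beta, Wnt and Hedgehog pathways had 14 enriched (43.75%) and 4 depleted (12.5%) of 32. Hes1, a target of Notch, had 1.93 and Smad3 1.90, and Smad5 and Tgfbr1 had -1.02 and -0.96, in the authors' deposited table. Chromatin regulators had 18 enriched (41.9%) and 11 depleted (25.6%) of 43, so only the depleted share was near that of all genes. Arid1a and Suv39h2 had 1.51 and 1.47, and Ezh2 and Hdac2, of the Polycomb and deacetylase complexes, both had -1.35, in the authors' deposited table.

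Transcripts long used as examples of m6A mRNAs were read as a list. It was chosen with earlier results of these data known, so it is not an independent control of the assay. Of 28 tested, 18 were enriched (64.3%) and 2 depleted (7.14%), against 25.9% and 25.4% of all genes, with a median of 0.92. Myc had 2.28, Socs3 2.20, Ppm1d 1.93 and Klf4 1.73, and all passed in the authors' deposited table, while Sox2 at 2.00 did not, at an adjusted p of 0.0683. The depleted were Mat2a, whose 3′ hairpins carry m6A placed by METTL16, at -1.09 and Map3k2 at -1.02 in the authors' deposited table. The X-inactivation RNA Xist is an m6A transcript in female cells and had 0.31 in these male testes, which did not pass in the authors' deposited table. Of 16 housekeeping transcripts used as references, a list chosen in the same way, 0 were enriched and 8 depleted (50%), with a median of -0.45. Hprt was lowest at -2.56, and Actb had -0.39 and Eef2 -0.19, which did not pass, in the authors' deposited table.

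Genes of large complexes that every cell needs had negative medians, with 1 exception. Cytosolic ribosomal protein genes had 51 depleted and 2 enriched of 84, with a median of -1.06. Rps7 had -2.88, Rps13 -2.56 and Rps29 -2.46, and the 2 enriched were Rpl10l at 1.04 and Rps4l at 0.51 in the authors' deposited table. Subunits of oxidative phosphorylation had 54 depleted and 2 enriched of 80, with a median of -0.98 and Cox7c lowest at -2.20 in the authors' deposited table. Proteasome genes had 29 depleted and 1 enriched of 39, with a median of -1.07. The exception was Psmd7, at 1.55 in the authors' deposited table. Mitochondrial ribosomal protein genes did not follow, with 26 enriched and 24 depleted of 76 and a median of 0.20. Mrpl41 and Mrpl43 had 2.27 and 1.81, and Mrps14 and Mrpl39 had -1.71 and -1.47, in the authors' deposited table.

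Gene structure went with the folds across all protein-coding genes. No exon lengths were used here; instead, genes for which the table lists no intron feature were taken as a proxy for genes without introns. Of 597 such protein-coding genes, 316 (52.9%) were enriched and 20 (3.35%) depleted, with a median of 1.35. Of 14748 protein-coding genes with an intron feature, 3765 (25.5%) were enriched and 4003 (27.1%) depleted, with a median of -0.08. The medians also differed within bins of gene span. Among spans over 2000 and up to 5000 bases the medians were 1.51 without and 0.03 with an intron feature, over 253 and 1179 genes, and up to 2000 bases they were 1.07 and -0.15, over 247 and 211. Genes with introns varied little with span, from -0.18 to 0.04 over the 8 bins. The proxy is not exact: it takes in Reps2, with a span of 231754 bases and a fold of -2.23 in the authors' deposited table. It also takes in all 22 clustered protocadherin gamma genes tested, which share their last exons and had a median of 1.89. One of them, Pcdhga1, spans 180096 bases. Among spans over 100000 and up to 200000 bases, the 15 genes without an intron feature had a median of 2.09 and include gamma protocadherins.

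**Figure D3:**
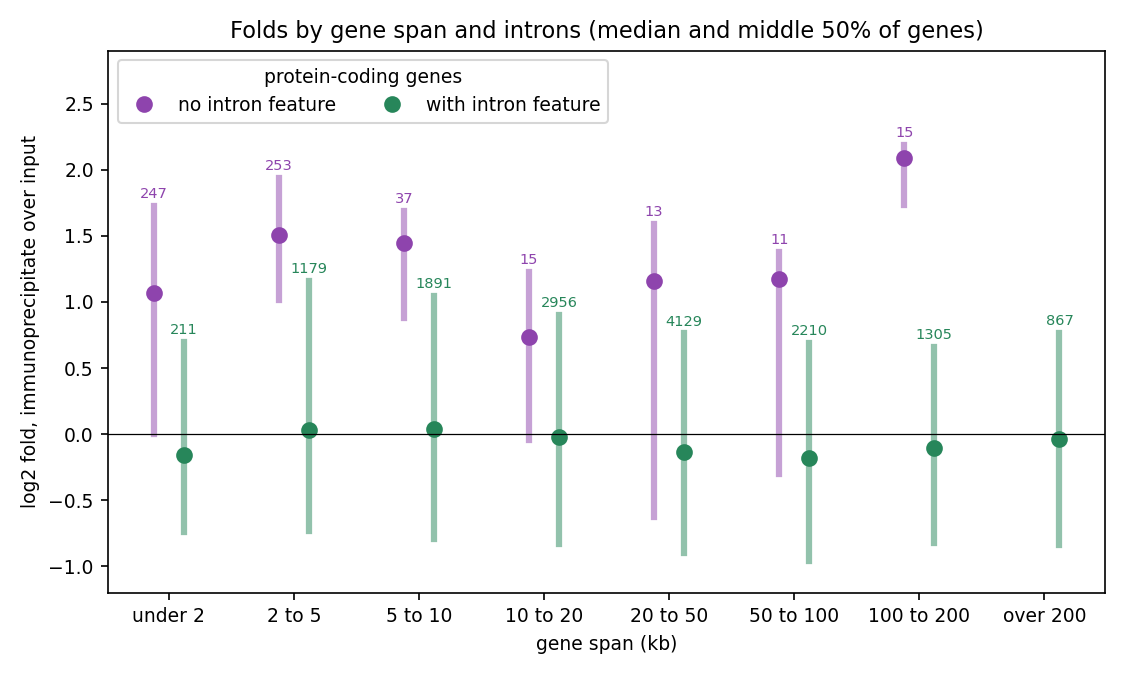
Median (points) and quartiles (bars) of the log2 fold of the immunoprecipitate over the input (vertical axis) for protein-coding genes in bins of gene span (horizontal axis, kb), without (purple) and with (green) an intron feature; numbers are genes, and bins with fewer than 10 genes are not drawn. In the 2 to 5 kb bin the medians are 1.51 and 0.03. Purple points at long spans include clustered protocadherin gamma genes, which share their last exons.

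Well-known single-exon genes were among those enriched. Jun had 2.57, Cebpb 2.61, Cebpd 2.85 and Sox3 2.14 in the authors' deposited table. The clustered protocadherins, cell adhesion genes whose isoforms each begin with one large exon, were above 0 in every case: 12 of 21 beta genes and 16 of 22 gamma genes were enriched and 0 depleted, with medians of 1.54 and 1.89. The gamma genes share their last exons, so their reads are not fully separate. Replication-dependent histone genes, which have no introns, short mRNAs and no poly(A) tail, differed. Of 36 without an intron feature, 2 were enriched and 2 depleted, with a median of -0.37. Hist3h2a had 1.09 and Hist2h2be 0.69, and Hist1h4c had -1.81 and Hist1h2aa -1.73, in the authors' deposited table. Of these 36, 34 are annotated as protein-coding; without them the remaining 563 protein-coding genes without an intron feature had a median of 1.41.

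Retrogenes, copies of a spliced mRNA put back into the genome, were read beside their parent genes. The 10 pairs below were picked as textbook testis retrogenes after some of their values were seen. The copy had the higher fold than its parent in 10 of 10 pairs, by 1.20 to 2.98 with a median of 1.82. Of the copies 6 were enriched and 1 depleted, and of the parents 0 were enriched and 7 depleted. Pdha2, the testis subunit of pyruvate dehydrogenase, had 1.43 and its parent Pdha1 -1.14 in the authors' deposited table. Cstf2t, a cleavage factor, had 0.56 and Cstf2 -1.45, the centrin gene Cetn1 0.95 and Cetn2 -1.13, and Rbmxl2 0.58 and Rbmx -0.61 in the authors' deposited table. Pgk2, of glycolysis in sperm, had 0.16 and did not pass, and Pgk1 had -1.55, in the authors' deposited table. Rpl39l was depleted at -0.72, less than Rpl39 at -2.09, in the authors' deposited table. In 9 of the 10 pairs the parent lies on the X chromosome, and 7 of the 10 copies had no intron feature. The copies Utp14b, Ppp3r2 and Rpl39l had one, and the parent Ubl4a had none, so not every pair sets a copy without introns against a parent with them. Intron content and chromosome cannot be told apart in these pairs. Near-identical copies such as Rpl10l and Rpl10 may share reads.

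X-linked genes were lower than those of any autosome. Their median was -0.49 over 641 genes, with 117 (18.3%) enriched and 219 (34.2%) depleted. The medians of the 19 autosomes lay between -0.16 and 0.20, and 15663 autosomal genes had 26.3% enriched and 25% depleted. Protein-coding genes with an intron feature had medians of -0.59 on the X chromosome, over 548 genes, and -0.06 on the autosomes. Genes without one had 1.41 on the X chromosome, over 57 genes, and 1.34 on the autosomes, over 540, so the medians lay apart only for genes with an intron feature. At mean counts of at least 100 the medians were -0.59 and -0.05. Introns of X-linked genes had a median of -0.30 over 430 genes, against -0.02 for autosomal introns. Stk26 and Hprt were lowest among X-linked exons at -2.80 and -2.56, and Cxx1b and Actrt1 highest at 3.52 and 3.17, in the authors' deposited table. The 8 genes of the Y chromosome had a median of -1.04.

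**Figure D4:**
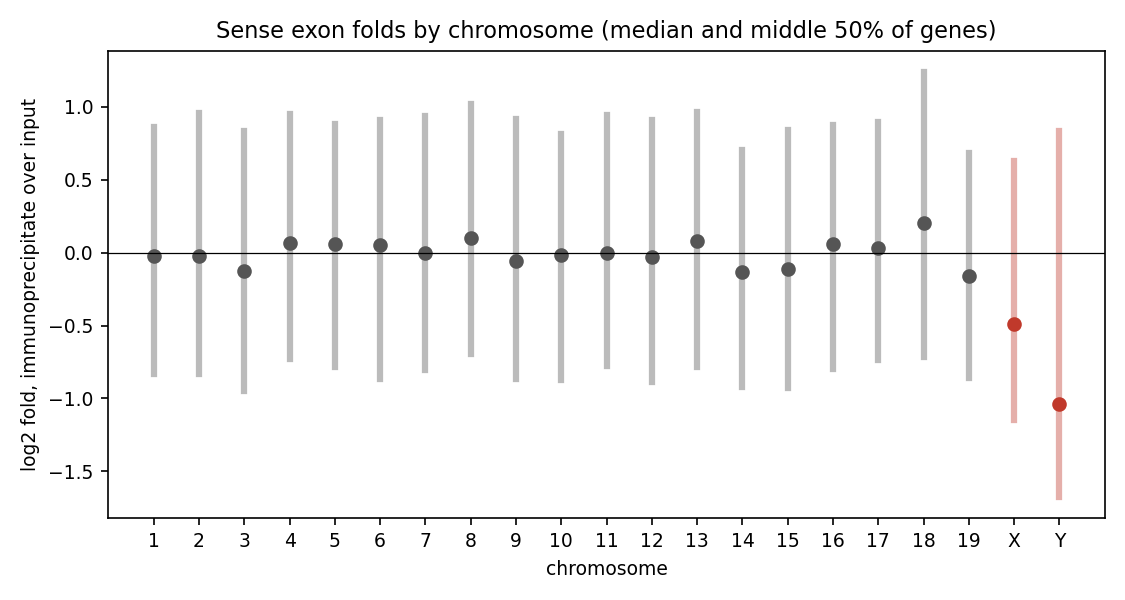
Median (points) and quartiles (bars) of the log2 fold of the immunoprecipitate over the input (vertical axis) for the genes of each chromosome (horizontal axis), sex chromosomes in red. The X chromosome at -0.49 lies below all 19 autosomes, which run from -0.16 to 0.20; the Y chromosome holds 8 genes.

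Of 715 long noncoding RNAs, 132 (18.5%) were enriched and 41 (5.73%) depleted, both below the 25.9% and 25.4% of all genes. Their median was 0.39, with 439 folds above 0 and 262 below. Shares called depend on the mean count, which was not matched here. Of 23 named ones, 3 were enriched and 9 depleted, and the hosts of small nucleolar RNAs made up most of the depleted: Snhg12 at -1.62, Snhg8 and Snhg6 at -1.46, Gas5 at -1.46, Snhg3 at -1.42, Snhg11 at -1.41 and Snhg1 at -1.06 in the authors' deposited table. Mir17hg, from which miR-17 and miR-20a are cut, was lowest at -2.70 and Rian next at -1.90 in the authors' deposited table. Peg13 had 2.39 and Ftx 1.99, and both passed in the authors' deposited table. Neat1 had 0.71 and did not pass in the authors' deposited table.

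Intron reads showed far less contrast than exons. Of 13055 sense introns, 542 were enriched (4.15%) and 293 depleted (2.24%), 6.4% in all, with a median of -0.03. Across the 12583 genes with both, the SD of folds was 1.06 for exons and 0.71 for introns, and Spearman's rho between them was 0.21, a description across genes that share both libraries. Introns of the 3224 genes enriched in exons had a median of 0.01, and introns of the 3916 genes depleted in exons had -0.27. Few genes enriched in exons were also called in introns: 209 of those 3224 introns were enriched and 35 depleted. Where both had mean counts of at least 100, the intron medians of the same groups were -0.14 and -0.36.

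A few introns were exceptions. Rbmxl1 had 3.88 (adjusted p = 1.48e-48), D17H6S53E 3.65, E030044B06Rik 3.63, Fam89b 3.61 and Mfsd5 3.60 in introns, per the authors' deposited table. The exon folds of the same genes were 1.65 for Rbmxl1, 1.86 for D17H6S53E and -0.30 for Fam89b in the authors' deposited table. The most depleted intron feature, of Klhl32, had -4.12 and also a mean count of 13079, against 46.0 in its exons, in the authors' deposited table. Rbm11 at -2.30, Hnrnph1 at -1.77, Cenpk at -1.70 and Rec114 at -1.66 followed in introns, per the authors' deposited table. Hormad1 introns had -1.61 beside -2.10 in its exons in the authors' deposited table.

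Antisense reads were few and leaned upward in exons. Of 1704 antisense exon features tested, 74 were enriched (4.34%) and 29 depleted (1.7%), 6.04% in all, with a median of 0.31. Msantd3 had 4.61, Hcrt 4.20, Lancl2 4.11, Alg9 4.10 and Fancl 3.86 in antisense exons in the authors' deposited table. Nr3c1 at -4.11, Ccnh at -3.27, Nsa2 at -3.18, Gm20554 at -3.11 and C230091D08Rik at -2.73 were the lowest in the authors' deposited table. All of these but C230091D08Rik had mean counts below 100. Antisense introns had 150 enriched (3.39%) and 90 depleted (2.03%) of 4430, which is 5.42% in all. They ran from Senp8 at -4.50, Fat3 at -4.20, Alg13 at -4.0, Knop1 at -3.92 and Zfp385c at -3.73 to Wapl at 3.19, Lor at 3.28, Prrg2 at 3.73 and Tomm6os at 4.07 in the authors' deposited table. Of 12 antisense miRNA hairpins 0 passed.

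Repeats were read by element and by strand. Of 1066 elements in sense, 167 were enriched (15.7%) and 61 depleted (5.72%), and of 986 in antisense 109 (11.1%) and 115 (11.7%), which is 21.4% and 22.7% called in all. LINE-1 (L1) elements, retrotransposons that germ cells restrain through piRNAs, showed the clearest strand difference. In sense, 44 of 131 L1 elements were enriched and 1 depleted, with a median of 0.27. In antisense, 1 of 128 was enriched and 65 depleted, with a median of -0.57. The sense fold exceeded the antisense fold in 121 of 128 L1 elements (94.5%), against 502 of all 960 elements with both strands (52.3%). Elements of a family share sequence and reads, so they are not independent.

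The largest sense folds came from L1 elements of several subfamilies. L1MDb had 2.07, L1Md_Gf 1.97, L1Md_F 1.89, L1Md_A 1.84 and L1VL1 1.78 in sense, and -0.35, -0.25, -0.01, -0.44 and -0.84 in antisense, in the authors' deposited table. All 5 passed in sense, and L1VL1 alone of them passed in antisense. The most counted L1 elements were split: L1Md_F2 was enriched at 1.20, while L1Md_F3 at -0.58 and L1Md_T at -0.46 did not pass in sense, in the authors' deposited table. Antisense depletion was also seen without a call in sense, as for L1M4 at -1.13 beside 0.14 and L1M2 at -0.77 beside 0.27, in the authors' deposited table. The 1 sense element depleted was L1ME4a at -1.19 in the authors' deposited table. Beyond the largest folds, these elements were picked after the values were seen.

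Among LTR retrotransposons the ERVL-MaLR family stood out in sense, with 34 of 99 enriched, 0 depleted and a median of 0.40. The internal parts led: ORR1A0-int had 3.40 (adjusted p = 8.57e-57), ORR1A1-int 2.98, MTA_Mm-int 2.70, MTB-int 2.49 and ORR1A4-int 2.45 in the authors' deposited table. Internal parts had 20 enriched of 47 and a median of 0.61 in sense, and the LTRs 14 of 52 and 0.29. In antisense the order was reversed, with 0 enriched of 44 internal parts and 11 of 52 LTRs. Across the LTR class the other large sense folds were LTR85c at 3.27, RNERVK23-int at 3.14 and LTR101_Mam at 2.84, and the lowest LTRIS4B at -2.19, in the authors' deposited table. In antisense LTR67B of the ERVL family had 3.69 (adjusted p = 2.57e-105), RLTR10F 2.82 and MLT2F 2.57, and MT2_Mm was lowest at -1.33, in the authors' deposited table. The chicken repeat 1 element X6A_LINE had 3.06 in antisense in the authors' deposited table.

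**Figure D5:**
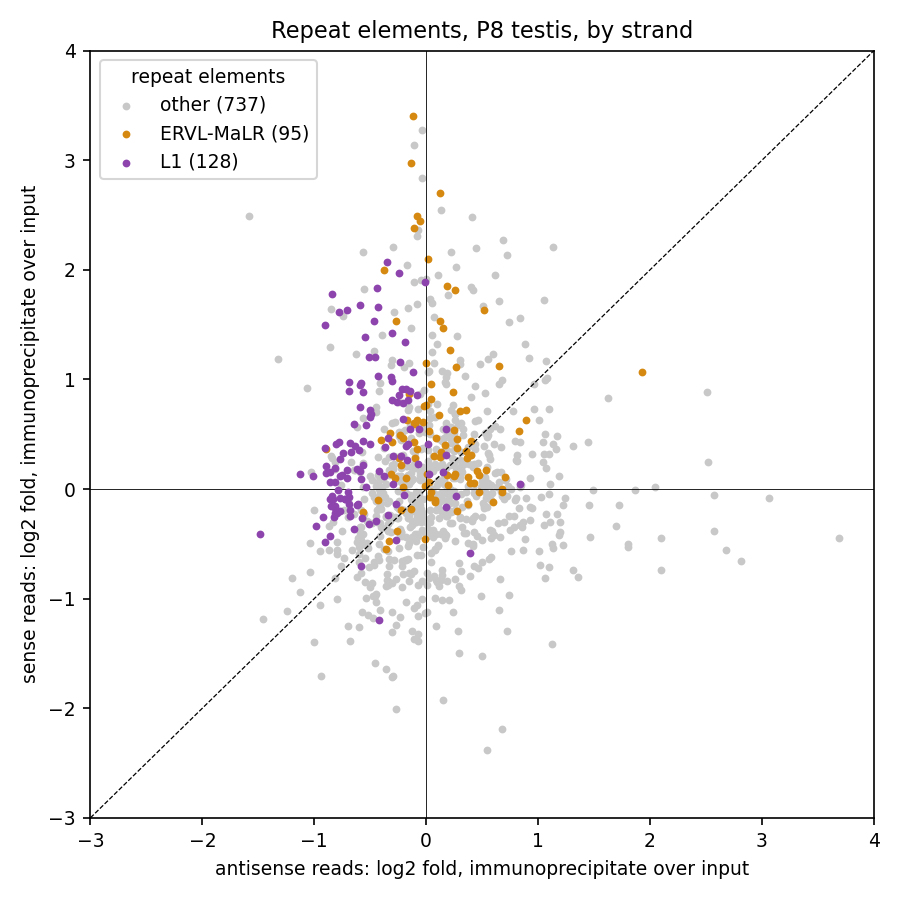
Log2 fold of the immunoprecipitate over the input for sense reads (vertical axis) against antisense reads (horizontal axis) of 960 repeat elements, L1 in purple and ERVL-MaLR in orange. The dashed line marks equal folds; 121 of the 128 L1 elements lie above it, mostly to the left of 0, and a column of ERVL-MaLR elements rises above 2 in sense near 0 in antisense.

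SINE elements had a larger sum of mean counts in sense than LINEs or LTR elements, with 0 enriched and 3 depleted of 37 in sense and a median of -0.11. DNA transposons had a sense median of -0.41, with 14 enriched and 23 depleted of 176. Tigger10 was enriched in sense at 2.49 and depleted in antisense at -1.58 in the authors' deposited table, and MamTip2 had -2.0 in sense. The satellite MMSAT4 had 2.55 at a mean count of 59882, and MurSatRep1, of no class in the table, had 1.89 (adjusted p = 7.76e-33) per the authors' deposited table.

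Structural RNA repeats differed by class. Of 12 small nuclear RNA elements, which here include U3 and other nucleolar RNAs, 7 were depleted and 2 enriched, with a median of -1.34. U7 had -2.28, U13 -1.86, U5 -1.70, U3 -1.50 and U4 -1.39 in the authors' deposited table. The enriched were U6 at 2.17 (adjusted p = 3.61e-21) and U2 at 1.18 (adjusted p = 0.00119) per the authors' deposited table. U6 is known to carry m6A placed by METTL16. Of 52 tRNA elements 47 were not called, 1 was enriched, tRNA-Trp-TGG at 1.49, and 4 depleted, the lowest tRNA-His-CAY_ at -2.38, in the authors' deposited table. The signal recognition particle RNA 7SLRNA had -1.71 in the authors' deposited table. The large ribosomal RNA element had -1.02 (adjusted p = 0.00530), and the small one -0.70, which did not pass, in the authors' deposited table. Mammalian large subunit rRNA is also known to carry m6A.

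The P8 classes were then read in the total RNA tables of the Ythdc2 knockouts, made from other libraries: 2 knockout and 1 wild-type or 1 heterozygous at P8, 3 and 3 at P12 and 2 and 2 in P0 ovary. The knockout lines were made with Cas9 at exon 7, and in whole gonads fewer cells of a type and less RNA per cell cannot be told apart. All 12 class medians lay between -0.02 and 0.03. In the P8 knockout against wild type the median knockout fold was 0.01 for 4191 enriched, -0.02 for 4123 depleted and 0.01 for 6853 other genes. At P12 against the heterozygote the medians were -0.01, 0.03 and 0.00, and in ovary 0.01, 0.00 and 0.01.

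The genes called in the knockouts were then read in the m6A assay. Of 15608 genes tested at P12, 0.782% were lower and 0.0961% higher in the knockout. The 122 lower ones held 32 enriched (26.2%) and 46 depleted (37.7%) in the immunoprecipitate, with a median m6A fold of -0.43, against 25.9% and 25.4% of all genes. Of the 14 higher genes in the m6A table, 0 were enriched and 5 (35.7%) depleted, with a median of -0.59. At P12 the depleted share was thus similar for lower and higher genes, though the higher genes were few. Rad51ap2 and Zfp541, with P12 knockout folds of -1.80 and -1.69, were enriched at 1.17 and 0.79 in the authors' deposited table. Mtl5, at -1.87 in the knockout, was depleted at -0.92 in the authors' deposited table. In P0 ovary 0.445% of 14606 genes were lower and 0.103% higher in the knockout. Of the 65 lower, 59 were in the m6A table, with 10 enriched (16.9%) and 28 depleted (47.5%) and a median of -0.70. Of the 15 higher in ovary, 4 were enriched and 4 depleted (26.7% each), with a median of 0.04, so the depleted shares differed there. Tdrd1 and Alg13, with ovary knockout folds of -1.83 and -1.73, had -1.46 and -1.92 in the m6A assay in the authors' deposited table. At P8, 0.0385% of 15592 genes were higher and 0.00641% lower against wild type, which is 6 genes and 1. Of these, Ren1, Sft2d2 and Acadl, higher in the knockout, and Wdfy1, lower, were depleted in the immunoprecipitate, in the authors' deposited table. Against the heterozygote 0.0513% were lower, which is 8 genes, and 1 was higher, Rpl21, from comparisons that share the knockout libraries. All 8, with Prm2 lowest at -1.03 in the knockout, are genes of later spermatogenesis, and none passed in the m6A assay, in the authors' deposited table.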

How the data were processed

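Per feature, the deposited m6A table holds a mean normalized count (a signal averaged by the authors over libraries of all ages), and for each age a log2 fold change and an adjusted p-value, per the file headers. The submitters' processing notes name DESeq2, cutadapt and the mm10 genome. Aligner, counting and versions were not found in these sources. Fold columns of each age are sorted separately: features without a fold but with a mean count above 0 numbered 0 at P8, 2911 at P12 and 2823 at P20. Only the P8 columns were therefore joined to names.

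Features with a mean count of at least 10 were described. Of 16399 such sense exons, 592 lack an adjusted p and count as not called. Mean counts summed to 24879917 over all features, 74.0% of it in sense exons. Depth per library is unknown. No test was run here, and calls are the authors' adjusted p-values below 0.05. RefSeq (GRCm38.p6) gave positions for 16312 of the tested genes. Named genes are the 12 largest called exon folds each way with a symbol other than Gm or Rik, the ends and called members of each list, the m6A machinery, the 5 largest called folds each way by feature type and the 5 most counted called genes each way. Members and the 38 gene lists were chosen with earlier results of these data known, and gene families, retrogene pairs, miRNA pairs and the split of ERVL-MaLR parts after values were seen. Exon lengths were not used. Some genes that the rule names are not reported here. Scripts were tested on simulated data. Python 3.11.15, pandas 2.3.3, numpy 2.4.6, scipy 1.17.1 and matplotlib 3.10.9 were used. Alternatives are given in the closing section.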

Additional observations from a re-analysis of the deposited data

How the results depend on the processing

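No paired analysis was possible because each group had 1 library and the table holds no value per library, so no replicate could be left out either. Counts of sense exons called stayed within 1.5 times of the main count under every alternative run. Of 37 list medians, 35 to 37 stayed within the 95% interval of the main median (from its order statistics over genes). That interval takes genes and not libraries as units, so it cannot stand in for replicates. In the smallest lists it spans all members, and centring the folds on the sense exon median moves every list alike, so little could change there. At an adjusted p below 0.01, antisense exons had 38 enriched and 13 depleted, antisense introns 87 and 52, and sense introns, sense repeats and miRNA hairpins 104, 33 and 14 depleted. At a mean count of at least 100, antisense exons had 33 and 6, antisense introns 70 enriched and miRNA hairpins 6 depleted. That minimum gave medians of -2.43 for small nucleolar RNAs, 0.47 for predicted genes, -0.12 and 1.53 for protein-coding genes with and without an intron feature, and -0.59 for X-linked genes (this last chosen after seeing the data). With no minimum the predicted genes had 0. Means in place of medians were -1.01 for germ cell and piRNA genes and 1.20 for Zfp genes. Alternatives chosen after seeing the data gave 0.41 for predicted genes also counted in P8 total RNA, -0.11 for genes with an intron feature without Zfp genes, and -0.59 for X-linked protein-coding genes with one. For knockout folds at P8 against wild type, depleted genes had -0.029 when called at 0.01, and genes below the lower quartile of folds had -0.019. Genes above the upper quartile had 0.0082 at P8 against the heterozygote and 0.0026 at P12, a change of sign from -0.0089 for enriched genes, and genes below the lower quartile 0.031 at P12. The cause of these shifts was not tested. Few sense exons with low mean counts were called, so a feature that was not called is not shown to be unchanged.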

Other observations

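Other gene groups of the same comparison lay nearer the middle, where 25.9% of all genes were enriched and 25.4% depleted. Collagen genes had 12 depleted and 2 enriched of 44, with a median of -0.38, and kinesin genes 15 and 6 of 38, with -0.27. F-box genes, which give ubiquitin ligases their targets, had 27 enriched and 14 depleted of 65 with a median of 0.28, and J-domain cochaperones 16 and 11 of 44 with 0.20. Ubiquitin-specific proteases had 21 and 17 of 51, solute carriers 64 and 50 of 289, and genes named Tmem 54 and 48 of 212. Predicted genes named Gm or Rik had 259 enriched and 100 depleted of 1212, with a median of 0.30. Of 19 spermatid markers 2 were enriched and 2 depleted, with Crem at 1.11 and Tssk1 at 1.07, and Spaca1 at -1.92 and Ldhc at -1.27, in the authors' deposited table. L2 elements were the reverse of L1: 4 of 4 were enriched in antisense, with a median of 0.69, and 1 of 4 was depleted in sense. Counts of sense exons called at P12 and P20 were 10083 and 9887, which could not be joined to gene names.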
